A study of Homo sapiens with 8 samples.

Results

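The AP-1 genes are described here in ribosome footprint libraries of HAP1 cells, a near-haploid human line that grows attached and descends from a chronic myeloid leukaemia. The members were 8 genes taken by their Ensembl identifiers, out of 19580 genes with 1 transcript each: JUN, JUNB, JUND, FOS, FOSB, FOSL1, FOSL2 and ATF3. The 4 groups were RNF14 knockout cells after 30 min of recovery, RNF14 knockout cells without recovery (0 min), and wild-type cells at the same 2 times, with 2 biological replicates each and 8 libraries in all. Every group had taken up 5 uM 4-thiouridine (4SU) for 18 h and had received 6 kJ/m2 of UVA, so the cells at 0 min had been through labelling and irradiation too. 4SU is a uridine analogue that enters new RNA and, excited by UVA, bonds to proteins that touch it. RNF14 is a ubiquitin ligase that marks proteins trapped on blocked ribosomes. Whether the knockout line is 1 clone is not given in the sources used here.

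AP-1 is a family of transcription factors that bind DNA as dimers through a basic region and a leucine zipper. Jun proteins pair with each other or with Fos proteins, while Fos proteins need a partner from outside their own subfamily, and ATF3 can pair with Jun proteins. Several members are immediate-early genes, transcribed within minutes of growth signals or stress from factors already present in the cell, and JUN is among the genes that its own product activates. Ribosomes that stall or collide can activate the kinase ZAK, which signals through p38 and JNK, and JNK phosphorylates c-Jun.

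JUN (ENSG00000177606) lies at chr1:58780791-58784047 on GRCh38.p14 and FOS (ENSG00000170345) at chr14:75278828-75282230. ATF3 (ENSG00000162772) lies at chr1:212565407-212620777, JUND (ENSG00000130522) at chr19:18279694-18281622, JUNB (ENSG00000171223) at chr19:12791486-12793315 and FOSB (ENSG00000125740) at chr19:45467996-45475179. FOSL1 (ENSG00000175592) lies at chr11:65892049-65900545 and FOSL2 (ENSG00000075426) at chr2:28392858-28417317. The lengths of the JUN, JUNB and JUND transcripts in the table, 3257, 1830 and 1929 nt, equal the lengths of their RefSeq genes. The ATF3 transcript in the table was 482 nt long, the shortest of the 8, and the FOSL2 transcript was 5829 nt long, the longest. Why that ATF3 transcript was listed is not given in the sources used here, and it may miss part of the gene's footprints. The RPKM of ATF3, its place among the members and its share of their sum depend on this transcript. Those of the other members depend likewise on the length of the transcript listed for each.

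Promoters are shown for JUN, FOS and ATF3, whose footprints were higher at 30 min than at 0 min, and for JUND, the member with the most reads, which did not pass the test. The sequences are from RefSeq (GRCh38.p14), 250 bases before to 50 bases after the transcription start, on the strand of the gene. Promoters matched 7 of the 8 members, in 8 windows, since ATF3 has 2 of them. FOSL1 had no promoter in the set used, so it was not searched and the motif results do not cover it. Capitals mark matches, on either strand, to TGACG or its reverse complement CGTCA, TGACGTCA or TGACATCA.
JUN promoter, chr1:58783998-58784297, minus strand: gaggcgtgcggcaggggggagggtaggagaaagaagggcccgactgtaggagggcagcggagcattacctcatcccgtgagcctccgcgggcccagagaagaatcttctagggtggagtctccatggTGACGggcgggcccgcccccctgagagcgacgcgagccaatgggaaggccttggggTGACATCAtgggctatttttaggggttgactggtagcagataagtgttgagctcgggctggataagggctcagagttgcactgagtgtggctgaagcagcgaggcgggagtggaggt
FOS promoter, chr14:75278578-75278877, plus strand: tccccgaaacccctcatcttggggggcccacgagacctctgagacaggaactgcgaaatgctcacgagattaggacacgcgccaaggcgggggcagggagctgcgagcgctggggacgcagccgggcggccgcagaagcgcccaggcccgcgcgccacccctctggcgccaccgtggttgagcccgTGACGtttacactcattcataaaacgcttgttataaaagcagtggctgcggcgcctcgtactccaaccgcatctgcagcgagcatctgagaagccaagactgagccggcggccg
ATF3 promoter, the first of its windows, chr1:212565157-212565456, plus strand: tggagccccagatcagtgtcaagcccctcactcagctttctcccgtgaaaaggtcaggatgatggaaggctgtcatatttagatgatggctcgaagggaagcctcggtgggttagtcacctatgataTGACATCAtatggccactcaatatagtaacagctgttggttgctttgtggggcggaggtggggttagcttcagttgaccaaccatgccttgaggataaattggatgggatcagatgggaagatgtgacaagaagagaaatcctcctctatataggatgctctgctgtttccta
JUND promoter, chr19:18281573-18281872, minus strand: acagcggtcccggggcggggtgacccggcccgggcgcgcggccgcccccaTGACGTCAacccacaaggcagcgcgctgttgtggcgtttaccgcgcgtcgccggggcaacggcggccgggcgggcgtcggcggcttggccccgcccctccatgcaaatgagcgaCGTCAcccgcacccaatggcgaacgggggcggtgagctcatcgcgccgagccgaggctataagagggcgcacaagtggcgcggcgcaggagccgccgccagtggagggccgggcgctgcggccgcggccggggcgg

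The cyclic AMP response element TGACGTCA, searched on both strands, occurred in 1.85% of the 35116 RefSeq promoters and, of the members, in JUND, 200 nt before its start. The JUN window and the first ATF3 window each held TGACATCA, at 67 and 123 nt before the start. The second ATF3 window, chr1:212614768-212615067, held neither this octamer nor any other motif searched. Which ATF3 window, if either, belongs to the listed ATF3 transcript was not determined. The octamer TGACATCA was added to the search after the promoter letters had been seen, and 2.61% of all promoters held it. The shorter TGACG, which is also part of TGACGTCA, occurred in 24.6% of all promoters. It was found 64 nt before the FOS start, 123 nt before the JUN start, 137 nt before the JUNB start and 60 nt before the FOSB start, and also in the FOSL2 and JUND windows. The AP-1 site in the form TGANTCA, present in 7.71% of all promoters, was found in the FOSL2 window and in no other window searched. The octamer TGACATCA has a further letter between TGA and TCA, so that search could not return it. The CArG box, the site of serum response factor, was found in 1.29% of all promoters and in none of the 8 windows. Sites more than 250 bases before a start lay outside the search, so these genes cannot be said to lack one. A match is a run of letters and was not tested for binding, and the libraries measured no transcription.

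Values are in RPKM, reads per transcript scaled to its length and to the depth of the library. Whole reads could be recovered from them for 100% of the values, and libraries held 323946 and 459227 reads (knockout, 30 min), 1241975 and 778683 (knockout, 0 min), 717828 and 516410 (wild type, 30 min) and 890647 and 971695 (wild type, 0 min). The 4 libraries at 30 min were thus all shallower than the 4 at 0 min. All changes are differences in log2(RPKM + 1), which understates the change of genes with low values, with standard errors (SE) and Benjamini-Hochberg adjusted p-values from limma-trend over the 11920 transcripts with a mean RPKM of at least 1. The threshold was an adjusted p of 0.05. Over all tested transcripts the median change at 30 min over 0 min was -0.12 in the knockout, -0.26 in wild type and -0.19 averaged over genotypes, and it was -0.39 for the average after scaling to TPM, so a member with no change stood slightly above the median transcript. In bulk libraries fewer cells of a type and less RNA per cell cannot be told apart, and without RNA abundance neither can changes in mRNA level and in translation. RNF14 footprints, the other pathway genes and the markers of the HAP1 lineage were not analysed here, because the gene table used held no Ensembl identifiers and 0 of 19580 could be matched to a symbol.

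Of the 7 members tested, 4 rose at 30 min when recovery was averaged over genotypes: JUN, FOS, ATF3 and FOSL1. ATF3 rested on 23 reads at each time, and its call was lost under a count model run on recovered reads. JUNB, JUND and FOSB did not pass the test, and none fell. Over all transcripts tested, 2.45% rose in the same contrast. The median change of the 7 members was 0.83, against -0.19 over all transcripts. Over the alternatives that tested the same 7 members it ran from 0.64 with TPM to 1.28 in thinned libraries. The medians over all transcripts were -0.39 with TPM and -0.17 in thinned libraries. Within 1 genotype only JUN rose, in the knockout and in wild type alike, where 0.646% and 1.79% of all transcripts rose. With median centring or quantile normalization 3 of the 7 rose in wild type, JUN, FOS and FOSL1. Of the 11920 transcripts, 342 and 284 rose there. Under the count model JUN and FOS rose in each genotype, as did 155 transcripts in the knockout and 400 in wild type.

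The libraries at 30 min were all above those at 0 min for 6 of the 7 members in the knockout, JUNB being the exception, and for JUN, FOS, FOSL1 and ATF3 in wild type. This held for 18.6% of all transcripts in the knockout and 14.0% in wild type. JUN, FOS, FOSL1 and ATF3 met it in both genotypes, as did 4.4% of all transcripts. None of the 7 had all libraries at 30 min below those at 0 min in either genotype, as 30.9% of all transcripts had in the knockout and 38.9% in wild type. In the knockout FOSB had 5 and 2 reads at 30 min against 2 and 2 at 0 min. In libraries thinned to 323946 reads it had 5 and 1 against 0 and 1, so its libraries did not stand apart there.

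**Figure D1:**
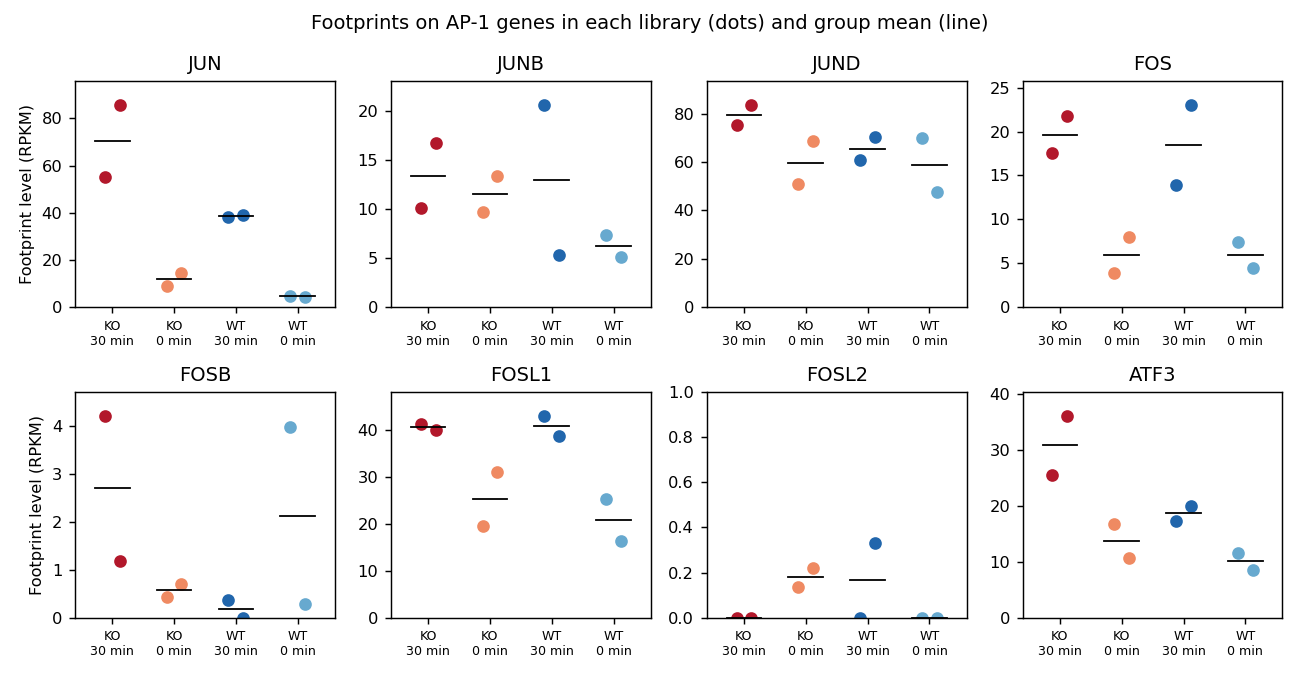
Footprint level (RPKM, each panel on its own axis) of the 8 AP-1 genes in the 8 libraries, with knockout groups left of wild-type groups and 30 min left of 0 min. Points are libraries and horizontal bars are means of 2 replicates: JUN at 30 min lies at 38.1 RPKM or above and at 0 min at 14.6 RPKM or below, while the groups of JUND lie close together.

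JUN, which encodes c-Jun, the founding Jun protein, had the largest fitted change of the 7 members tested. It had 55.0 and 85.6 RPKM in the knockout at 30 min, against 8.90 and 14.6 RPKM in the knockout at 0 min. Wild-type libraries had 38.1 and 39.2 RPKM at 30 min, against 4.83 and 4.42 RPKM at 0 min. All 4 libraries at 30 min stood above all 4 at 0 min, and at each time both knockout libraries stood above both wild-type libraries.

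JUN rose in the knockout by 2.49 (SE 0.31, limma-trend adjusted p = 0.00324) and in wild type by 2.82 (SE 0.31, limma-trend adjusted p = 0.000922). In the order of all 11920 changes it was number 27 from the top in the knockout and number 5 in wild type. Averaged over genotypes it rose by 2.65 (SE 0.22, limma-trend adjusted p = 8.45e-05), number 2 from the top and 2.84 above the median of all transcripts. The call held in each of the 16 alternative settings for all 3 of these contrasts, the highest adjusted p being 0.0495, in the knockout without its 0 min replicate 1. With every library thinned to 323946 reads, so that depth no longer differed between the times, the averaged change was 2.68 (limma-trend adjusted p = 0.00204).

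The change in JUN rested on 341 reads at 30 min and 101 reads at 0 min over both genotypes. The share of library reads was 6.50 times as high at 30 min as at 0 min (exact 95% interval 5.19 to 8.20, for counting error only). Within the knockout that ratio was 6.57 (4.99 to 8.74), from 186 and 73 reads, and within wild type it was 8.35 (5.56 to 13.0), from 155 and 28 reads. The intervals of both genotypes overlap. The difference between the genotypes in the JUN change was -0.33 (95% interval -1.30 to 0.63, limma-trend adjusted p = 0.762). Its sign turned to 0.24 in libraries thinned to equal reads.

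JUN was higher in the knockout than in wild type by 0.81 at 30 min and by 1.14 at 0 min, but neither difference passed the test (limma-trend adjusted p = 0.374 and 0.178). The unadjusted 95% intervals were 0.13 to 1.49 and 0.46 to 1.83. In shares of reads the knockout had 1.89 times the wild-type level at 30 min (counting interval 1.52 to 2.36) and 2.40 times at 0 min (1.53 to 3.86). The knockout replicates at 30 min, at 55.0 and 85.6 RPKM, lay farther from each other than the lower one lay from wild type at 30 min. The difference at 30 min was 0.50 without knockout 30 min replicate 2, and that at 0 min was 0.55 in thinned libraries. Over the 16 alternatives the adjusted p ran from 0.207 to 0.680 at 30 min and from 0.0565 to 0.680 at 0 min.

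JUNB, an immediate-early Jun protein that can restrain c-Jun activity, showed no such separation. It had 10.1 and 16.7 RPKM in the knockout at 30 min and 9.68 and 13.3 RPKM at 0 min. Wild type gave 20.6 and 5.29 RPKM at 30 min and 7.36 and 5.06 RPKM at 0 min. The groups overlapped in both genotypes, and the wild-type replicates at 30 min stood far apart. The averaged change was 0.44 (SE 0.37, 95% interval -0.37 to 1.26, limma-trend adjusted p = 0.502). The share of reads over both genotypes was 1.61 times as high at 30 min (counting interval 1.09 to 2.37), from 52 and 62 reads, of which 27 of the 52 came from wild type at 30 min, replicate 1. Without that library the averaged change was 0.00.

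JUND, the Jun protein present in resting cells, had the highest mean RPKM of the members in each group. It had 75.2 and 83.5 RPKM in the knockout at 30 min and 50.9 and 68.6 RPKM at 0 min. In wild type it had 60.7 and 70.3 RPKM at 30 min and 69.8 and 47.5 RPKM at 0 min. The wild-type groups overlapped, while both knockout libraries at 30 min were above those at 0 min. The averaged change was 0.30 (SE 0.17, 95% interval -0.08 to 0.68, limma-trend adjusted p = 0.321), an interval that leaves out a change of the size seen in JUN. In wild type the change was 0.18, and scaling to TPM turned it to -0.12.

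FOS, which encodes the immediate-early protein c-Fos, had the next largest averaged change. It had 17.6 and 21.7 RPKM in the knockout at 30 min, against 3.83 and 7.93 RPKM at 0 min. Wild-type libraries had 13.9 and 23.0 RPKM at 30 min, against 7.47 and 4.40 RPKM at 0 min. The libraries at 30 min lay above those at 0 min in both genotypes, and the knockout and wild-type ranges overlapped at each time.

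FOS rose by 1.57 averaged over genotypes (SE 0.28, limma-trend adjusted p = 0.0115), number 41 from the top and 1.75 above the median of all transcripts. The change was 1.65 in the knockout and 1.48 in wild type, and neither passed alone (limma-trend adjusted p = 0.0672 and 0.0732). Under limma voom, a count model run on recovered reads, each passed (adjusted p = 0.0110 and 0.0187). The wild-type change also passed with median centring (limma-trend adjusted p = 0.0357) and with quantile normalization (0.0359). The averaged call was lost without the knockout 0 min replicate 1 (limma-trend adjusted p = 0.0563), without the wild-type 30 min replicate 2 (0.0634) and without the wild-type 0 min replicate 2 (0.0535), with changes of 1.34 to 1.4. The share of reads was 3.31 times as high at 30 min as at 0 min (counting interval 2.27 to 4.86), from 79 and 46 reads.

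FOSL1, which encodes the Fos-related protein FRA1, was the member of the Fos subfamily with the highest level. It had 41.2 and 39.9 RPKM in the knockout at 30 min, against 19.5 and 31.0 RPKM at 0 min. Wild type gave 43.0 and 38.7 RPKM at 30 min, against 25.3 and 16.3 RPKM at 0 min. Its libraries at 30 min, of either genotype, lay within a narrow range above all those at 0 min.

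FOSL1 rose by 0.83 averaged over genotypes (SE 0.20, limma-trend adjusted p = 0.0351), number 282 from the top. The call was lost in 7 of the 8 fits that left out 1 library, with adjusted p of 0.0543 to 0.149 and changes of 0.67 to 1.0, and it was kept without the wild-type 0 min replicate 1 (limma-trend adjusted p = 0.0290). It was also lost with no filter (0.0565), with TPM (0.0652) and in thinned libraries (0.0794). Within 1 genotype the change was 0.70 in the knockout and 0.97 in wild type (limma-trend adjusted p = 0.236 and 0.0933). The wild-type change passed with median centring (limma-trend adjusted p = 0.0352) and with quantile normalization (0.0421).

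FOSB, a Fos protein whose gene is also immediate-early, had 26 reads in all 8 libraries together. It had 4.21 and 1.19 RPKM in the knockout at 30 min and 0.439 and 0.700 RPKM at 0 min. In wild type it had 0.380 and 0 RPKM at 30 min and 3.98 and 0.281 RPKM at 0 min. The wild-type 0 min replicate 1 held 13 of the 14 wild-type reads at 0 min. The change was 1.11 in the knockout and -1.10 in wild type, and the difference between them was 2.21 (95% interval -0.04 to 4.47, limma-trend adjusted p = 0.380). Neither change passed the test (limma-trend adjusted p = 0.449 and 0.410), and without that replicate the wild-type change was -0.12.

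FOSL2, which encodes FRA2, was at the limit of detection with 3 reads in all, and its mean RPKM of less than 1 kept it out of the test. It had 1 read in each library of the knockout at 0 min and 1 read in wild type at 30 min, replicate 2. No reads were seen in the knockout at 30 min or in wild type at 0 min, which allows levels of up to 0.657 and 0.276 RPKM over the reads of each group. No difference between groups was detectable at this depth.

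ATF3, a stress-responsive factor that often represses its targets as a homodimer, had 4 to 10 reads per library on its short transcript. It had 25.6 and 36.1 RPKM in the knockout at 30 min, against 16.7 and 10.7 RPKM at 0 min. Wild-type libraries had 17.3 and 20.1 RPKM at 30 min, against 11.6 and 8.54 RPKM at 0 min. Both genotypes had higher libraries at 30 min than at 0 min, and at 30 min the knockout libraries stood above the wild-type ones.

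ATF3 rose by 0.99 averaged over genotypes (SE 0.22, limma-trend adjusted p = 0.0254), number 198 from the top. The call was lost in 6 of the 8 fits that left out 1 library, with adjusted p of 0.0520 to 0.122, and kept without the knockout 30 min replicate 1 (0.0293) or the wild-type 0 min replicate 1 (0.0354). It was also lost with the count model (limma voom adjusted p = 0.164) and in thinned libraries (limma-trend adjusted p = 0.101). The share of reads was 1.92 times as high at 30 min (counting interval 1.03 to 3.59), from 23 reads at each time. In the knockout the change was 1.13 and in wild type 0.84 (limma-trend adjusted p = 0.0915 and 0.163).

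With the count model, limma voom, 3 of the 7 members rose in the averaged contrast, JUN, FOS and FOSL1, where 3.45% of all transcripts rose. Over the 8 fits that left out 1 library, 1 to 4 of the 7 members and 1.01% to 2.48% of all transcripts rose. JUN was among them each time, and it was the lone one without the knockout 0 min replicate 1, the wild-type 30 min replicate 2 or the wild-type 0 min replicate 2.

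**Figure D2:**
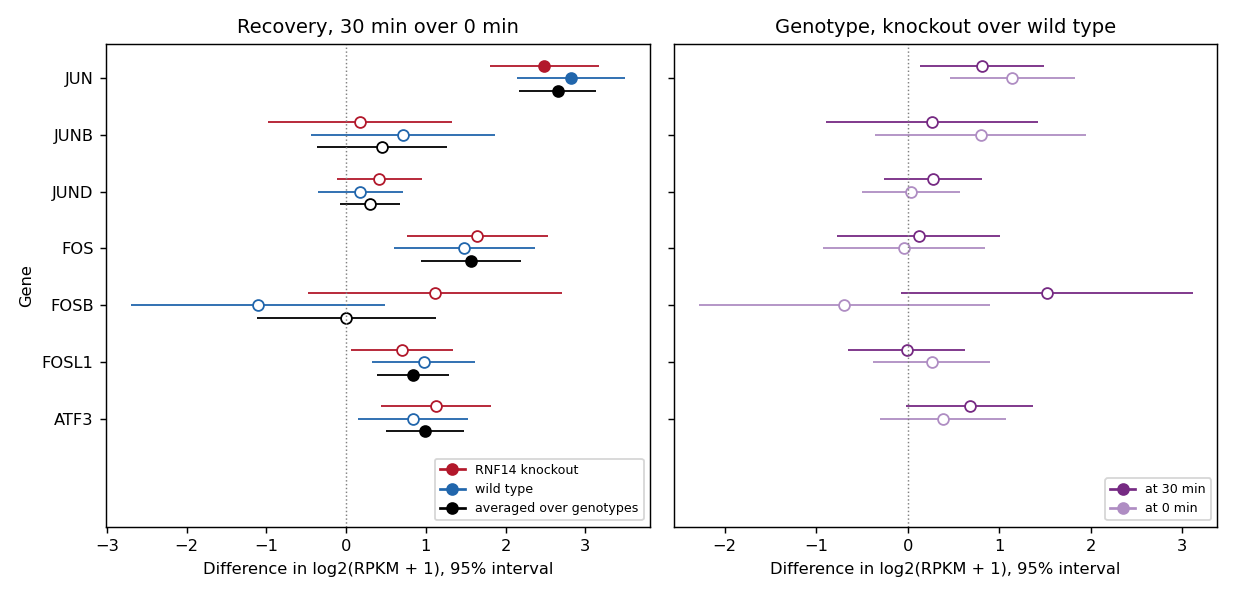
Difference in log2(RPKM + 1) of the 7 tested AP-1 genes, with 95% intervals from limma-trend. These intervals came from RPKM, which does not carry the number of reads. The left panel gives 30 min over 0 min in the knockout, in wild type and averaged over genotypes, the right panel knockout over wild type at 30 min and at 0 min. Filled points passed an adjusted p of 0.05: JUN in all 3 recovery contrasts, and FOS, FOSL1 and ATF3 in the average.

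**Figure D3:**
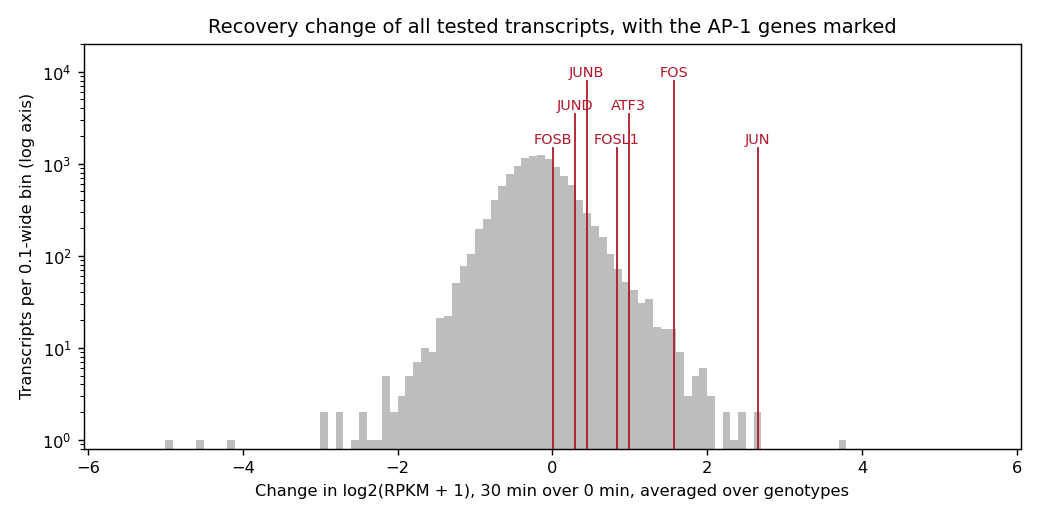
Distribution of the change at 30 min over 0 min, averaged over genotypes, for all 11920 tested transcripts in bins of 0.1 (log count axis), with the AP-1 genes as vertical lines. JUN at 2.65 lies near the upper end, FOS at 1.57 and ATF3 at 0.99 in the upper tail, and FOSB, JUND and JUNB lie between 0.00 and 0.44.

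No member passed the test between genotypes at either time, and no member's recovery differed between the genotypes past the threshold. Over all transcripts 0.126% passed at 30 min, 0.168% at 0 min and 0.00839% in the interaction, counting both directions. At an unadjusted p under 0.05, 1 of the 7, JUN, passed at 30 min and at 0 min and 0 passed in the interaction, where 10.9%, 13.6% and 13.3% of all transcripts did. After adjustment limma voom called 0 of the 7 in each of the 3 contrasts, and 0.176%, 6.97% and 1.03% of all transcripts. The median difference of the 7 members, knockout over wild type, was 0.28 at 30 min and 0.26 at 0 min, against 0.02 and -0.08 over all transcripts. These medians moved with single libraries. At 30 min the members' median was 0.60 without knockout 30 min replicate 1, and for wild type at 30 min it was 0.58 with replicate 1 left out and 0.46 with replicate 2 left out. At 0 min it was -0.059 without knockout 0 min replicate 2, -0.037 without wild-type 0 min replicate 2, 0.57 without wild-type 0 min replicate 1 and 0.40 without knockout 0 min replicate 1. It was also 0.14 with TPM, 0.17 in thinned libraries and 0.40 with median centring at 0 min, so its direction was not settled there.

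At 30 min the knockout libraries were all above the wild-type libraries for JUN, JUND, FOSB and ATF3, and 20.2% of all transcripts showed this. At 0 min this held for JUN and JUNB, and for 21.5% of all transcripts. In libraries thinned to 323946 reads, FOSB at 30 min had 5 and 1 reads in the knockout against 1 and 0 in wild type. ATF3 at 30 min had 4 and 6 against 4 and 4, and JUN at 0 min had 8 and 12 against 8 and 5. These did not stand apart there, while JUN and JUND at 30 min and JUNB at 0 min did. For FOS the difference was 0.12 at 30 min (95% interval -0.77 to 1.01) and -0.04 at 0 min (-0.93 to 0.84). For FOSL1 it was -0.01 at 30 min (-0.65 to 0.63) and 0.26 at 0 min (-0.38 to 0.91). These intervals allow differences of nearly 1 on the log2 scale for FOS, so the members cannot be called alike in both genotypes.

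The place of JUN in the order of the members by RPKM differed between the groups, and FOS and JUNB changed places between the times. In the knockout at 30 min it was JUND, JUN, FOSL1, ATF3, FOS, JUNB, FOSB and FOSL2, and the replicates of JUND and JUN overlapped. In the knockout at 0 min JUN was number 4, after JUND, FOSL1 and ATF3, and overlapped with its neighbours ATF3 and JUNB, and FOS, FOSB and FOSL2 followed. FOS stood above JUNB in the knockout at 30 min and below it at 0 min, with replicates apart at both times. In wild type at 30 min JUN was number 3, overlapping with FOSL1 above it, and ATF3, FOS and JUNB below it overlapped in turn. In wild type at 0 min JUN was number 6, after JUND, FOSL1, ATF3, JUNB and FOS, of which JUNB and FOS overlapped with each other and FOS with JUN. FOS thus had the higher mean than JUNB in wild type at 30 min and the lower one at 0 min, within overlapping replicates.

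**Figure D4:**
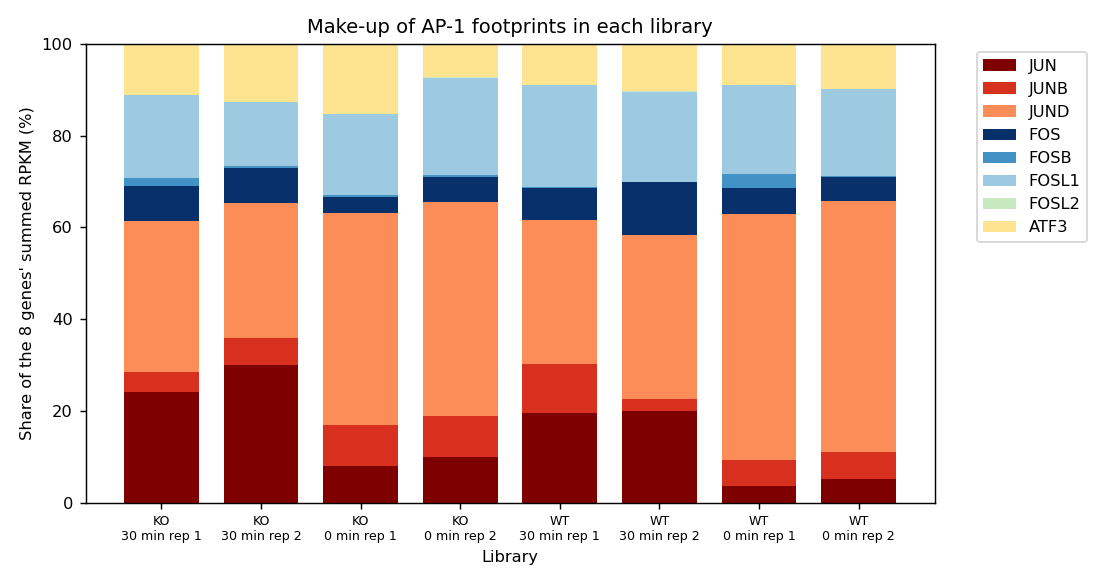
Share of the summed RPKM of the 8 AP-1 genes taken by each, per library, with the libraries ordered as knockout 30 min, knockout 0 min, wild type 30 min and wild type 0 min. The share of JUN is wider and that of JUND narrower in the libraries at 30 min than in those at 0 min.

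As a share of the summed RPKM of the 8 genes, JUN took 27.0% ± 4.27 in the knockout at 30 min and 9.0% ± 1.30 at 0 min (n = 2 each, SD). In wild type it took 19.8% ± 0.203 at 30 min and 4.41% ± 1.0 at 0 min (n = 2 each, SD). JUND took 31.1% ± 2.49 in the knockout at 30 min and 46.4% ± 0.261 at 0 min, and 33.5% ± 3.10 in wild-type cells at 30 min and 54.2% ± 0.946 at 0 min (n = 2 each, SD). A share can be lower without a lower level, and the level of JUND itself did not pass the test.

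The 3 Jun genes together took 63.3% ± 2.79 in the knockout at 30 min and 64.4% ± 1.75 at 0 min, and 59.9% ± 2.29 in wild-type cells at 30 min and 64.4% ± 2.09 at 0 min (n = 2 each, SD). The 4 Fos genes took 24.8% ± 3.85 and 24.4% ± 3.85 in the knockout and 30.5% ± 1.41 and 26.2% ± 2.76 in wild-type cells, at 30 min and 0 min (n = 2 each, SD). The sums of the Jun genes differed little between groups beside the shares of JUN and JUND alone. All 8 members together held 0.0521% ± 0.00911 of the reads in the knockout at 30 min and 0.0227% ± 0.00568 at 0 min, and 0.0374% ± 0.000734 in wild-type cells at 30 min and 0.0190% ± 0.00572 at 0 min (n = 2 each, SD).

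Ratios within a library do not depend on its depth or scaling. The RPKM ratio of JUN to JUND was 0.731 and 1.02 in the knockout at 30 min, against 0.175 and 0.213 at 0 min. In wild type it was 0.628 and 0.558 at 30 min, against 0.0691 and 0.0932 at 0 min. By RPKM, JUN thus reached the level of JUND in 1 knockout library, and lay far below it in every library at 0 min. This comparison of levels depends on the transcript lengths, 3257 nt for JUN and 1929 nt for JUND. In reads JUN had 58 and 128 in the knockout at 30 min, against 47 and 74 for JUND. In wild type at 30 min JUN had 89 and 66 reads, against 84 and 70 for JUND.

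The averaged log2 change of the ratio to JUND was 2.52 for JUN, 1.43 for FOS, 0.74 for ATF3 and 0.56 for FOSL1. These 4 genes are the members already given as higher at 30 min, and the ratios share JUND as their denominator, so they are a description with no test. For JUNB the change was 0.18, with ratios of 0.135 and 0.199 in the knockout at 30 min against 0.190 and 0.194 at 0 min, and of 0.339 and 0.0753 in wild-type cells at 30 min against 0.105 and 0.107 at 0 min. The JUNB ratios overlapped in both genotypes. The ratios of FOSB were 0.0560 and 0.0142 in the knockout at 30 min against 0.00862 and 0.0102 at 0 min, and 0.00626 and 0 in wild-type cells at 30 min against 0.0570 and 0.00591 at 0 min, overlapping in wild type.

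**Figure D5:**
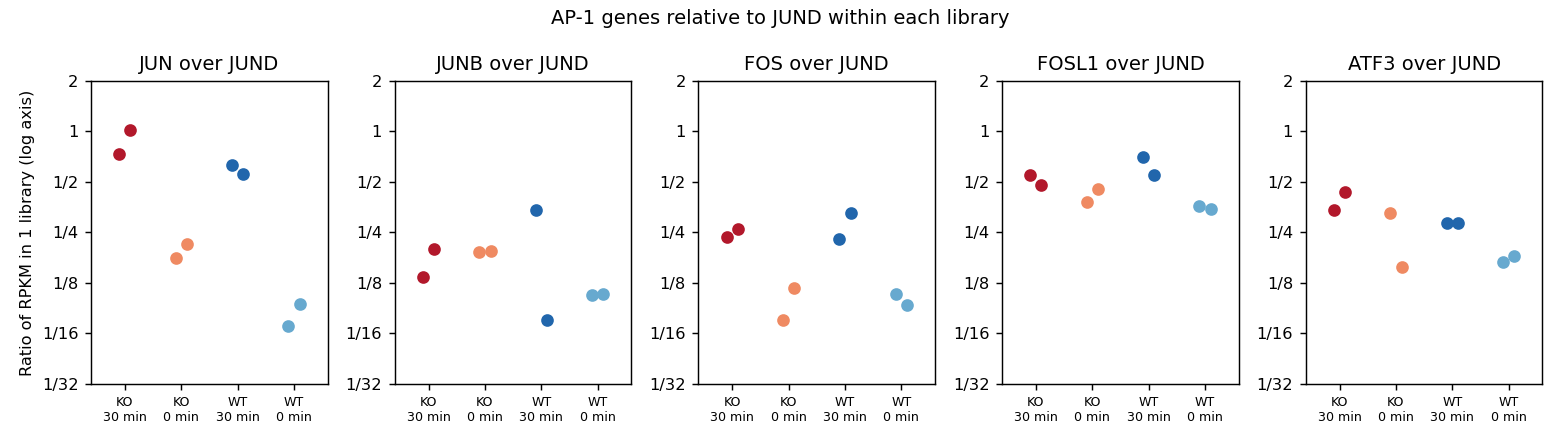
RPKM ratio of JUN, JUNB, FOS, FOSL1 and ATF3 to JUND in each library (log axis), with knockout left of wild type and 30 min left of 0 min. The ratios of JUN, FOS, FOSL1 and ATF3 are higher in both libraries at 30 min than in both at 0 min of the same genotype, with the widest gap for JUN, and those of JUNB overlap.

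For JUND, the member with the most reads (709 over the 8 libraries), the transcripts with the most similar levels were sought among 8813 others with at least 100 reads. The first 2 were ENSG00000067334.14 (5896 nt, Pearson r = 0.955 of log2(RPKM + 1) over 8 libraries) and ENSG00000104218.16 (3715 nt, r = 0.932). Being the best of 8813, such values are high by selection, and the libraries share their depths and groups. As in JUND, the level of ENSG00000067334.14 was higher in both knockout libraries at 30 min (10.99 and 11.8 RPKM) than in both at 0 min (6.15 and 8.71 RPKM), and overlapped in wild type (8.74 and 10.8 RPKM at 30 min, 9.90 and 6.63 RPKM at 0 min).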

How the data were processed

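Ribosome footprints of 15 to 70 nt were sequenced from 8 HAP1 libraries; per the labels' protocols, cells were lysed in cycloheximide, RNase I cut the RNA, and ribosomes were collected under sucrose. Tools in the submitters' processing notes are cutadapt and STAR 2.7.10a, with build hg38; how transcripts were chosen and which region was counted is not given in the sources used here. RPKM values were deposited for 1 transcript per gene with its length, and RPKM times length gave whole reads within a tolerance of 0.05. One column (knockout, 30 min, replicate 1) has an unexplained suffix and was matched by genotype, time and replicate.

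limma-trend (limma 3.58.1, R 4.3.3) was fitted to log2(RPKM + 1) of the 11920 transcripts whose mean RPKM reached 1, as 4 group means with 4 residual degrees of freedom, two-sided and with no replicate block; p-values were adjusted by Benjamini-Hochberg over all of them, with a threshold of 0.05. RPKM is no count, so limma voom on recovered reads was an alternative, beside a pseudocount of 0.1, no filter, TPM, median centring, quantile normalization, a replicate block and leaving out each library. Thinning each library once to 323946 reads was added after seeing the data. The series design calls the replicates biological, and the labels name no separate cultures. The p-values rest on the spread between these libraries. For each transcript limma-trend draws that spread towards the spread of transcripts of like level, which gave 10.3 degrees of freedom in all. A member's p-value thus does not rest on its own spread alone. Ratios of read shares carry exact 95% Clopper-Pearson intervals, and with PCR duplicates not marked these and the floor of 3 reads cover counting error only. The fit was also run on simulated counts with known changes, placed in transcripts with more reads than ATF3 and FOSB had. That run cannot tell how well changes are found in genes with so few reads, and its outcome is not given here. The members, lists, motifs and tests were chosen with earlier results of these data known. All 8 members were named; for likeness the rule took the first 2 identifiers by correlation with the most read member. Summaries and figures used Python 3.11.15, numpy 2.4.6, pandas 2.3.3, scipy 1.17.1 and matplotlib 3.10.9.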

Additional observations from a re-analysis of the deposited data

How the results depend on the processing

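JUN rose in the knockout, in wild type and in the average under each of the 16 alternatives. The averaged calls of FOS, FOSL1 and ATF3 were lost under those named with their values above. Within 1 genotype FOS and FOSL1 gained calls under the settings named with their values above. Low reads limit ATF3, FOSB and FOSL2 most. Counts of transcripts past the threshold, 235 in the knockout, 385 in wild type, 929 in the average, 15 between genotypes at 30 min, 20 at 0 min and 1 in the interaction, moved as follows, and the cause was not tested. With no filter the knockout gave 117 and the genotypes at 0 min 12, and with a pseudocount of 0.1 the genotypes at 0 min gave 10. With TPM the knockout gave 571, wild type 1385 and the average 2165. With median centring the knockout gave 73 and the average 432, and with quantile normalization the knockout gave 147. With limma voom the knockout gave 399, wild type 1176, the genotypes at 0 min 831 and the interaction 123. In thinned libraries the knockout gave 63, wild type 116, the average 276, the genotypes 1 at 30 min and 4 at 0 min. Of the averaged calls, 292 were higher and 637 lower, while TPM gave 219 and 1946, median centring 342 and 90, and quantile normalization 422 and 247. Leaving out 1 library, with the lone one of its group assumed to vary like the others, gave 22 to 518 calls in the knockout, 80 to 515 in wild type, 217 to 1158 in the average, 8 to 124 between genotypes at 30 min, 3 to 31 at 0 min and 1 to 34 in the interaction. With the replicate number as a block the counts were 226, 330, 817, 13, 18 and 1, with JUN, FOS, FOSL1 and ATF3 called in the average as without it and no other member's call changed. Same-numbered libraries did not deviate together (correlations of -0.08 to 0.07 between groups).

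Signs turned only for changes that had not passed the test. The JUND change in wild type was -0.12 with TPM. The averaged FOSB change was -0.33 with a pseudocount of 0.1, -0.13 with TPM and -0.054 in thinned libraries. Between genotypes at 30 min FOSL1 was 0.046 with TPM. At 0 min FOS was 0.093 with median centring, 0.11 with quantile normalization and 0.17 in thinned libraries, JUND was -0.091 with TPM, -0.0055 with quantile normalization and -0.18 in thinned libraries, and ATF3 was -0.27 in thinned libraries. In the interaction FOS was -0.045 with median centring, -0.045 with quantile normalization and -0.15 in thinned libraries, and JUN was 0.24 in thinned libraries. Leaving out 1 library gave, with both signs, -0.15 to 0.51 for JUNB in the knockout, -0.18 to 1.60 for JUNB and -0.10 to 0.45 for JUND in wild type, and -0.49 to 0.49 for FOSB in the average. Between genotypes at 30 min it gave -0.22 to 0.46 for FOS, -0.082 to 0.064 for FOSL1 and -0.62 to 1.16 for JUNB. At 0 min it gave -0.49 to 0.40 for FOS, -1.67 to 0.29 for FOSB, -0.059 to 0.59 for FOSL1 and -0.24 to 0.31 for JUND. In the interaction it gave -0.28 to 0.61 for FOS, -0.60 to 0.050 for FOSL1, -1.42 to 0.36 for JUNB, -0.034 to 0.51 for JUND and -0.012 to 0.59 for ATF3.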
